A study of Homo sapiens with 6 samples.

Results

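The 4 human alkaline phosphatase genes, ALPP, ALPPL2, ALPI and ALPL, were read in 6 RNA-seq libraries of the estrogen-responsive Ishikawa line, which derives from an endometrial adenocarcinoma. They were taken by symbol from a deposited table of 26364 genes, and all 4 were present. The cells were the parental line and 2 ETV4 knockout clones of it, and every line was sequenced once with vehicle (0.1% DMSO) and once with estradiol (E2, 10 nM). The parental groups thus had n = 1 and the knockout groups n = 2, each clone being a separate line with 1 library per treatment. All lines had been held in hormone-depleted medium before treatment, so the DMSO libraries come from cells without added estrogen. The labels give the treatment time as 8 h in the protocol and as 1 h in the sample characteristics. They do not say how the knockout was made.

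Alkaline phosphatases are zinc enzymes that remove phosphate groups outside the cell, where a glycosylphosphatidylinositol (GPI) anchor holds them on the membrane. ALPP is the placental enzyme, and ALPPL2 (called ALPG in current nomenclature) is its close copy, known from germ cells and germ cell tumours. ALPI is the enzyme of the intestinal brush border. ALPL, the tissue-nonspecific enzyme of bone, liver and kidney, sits on another chromosome and breaks down pyrophosphate during mineralisation. Alkaline phosphatase activity induced by estrogen is the classic laboratory readout of Ishikawa cells.

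Because the members resemble each other, their sequences are shown first, as they bear on how well reads can be divided. In the coding sequences of GENCODE 29, ALPP and ALPPL2 were identical at 97.8% of aligned bases and shared an unbroken run of 339 bases. ALPI matched ALPP at 89.7% and ALPPL2 at 89.5%, with longest shared runs of 75 and 60 bases. ALPL matched the other members at 65.3% to 66.3%, with no shared run over 16 bases. Of all 75-base windows along its transcript, ALPP had 17.3% and ALPPL2 20.6% in common with another member. The share was 0.0404% for ALPI and 0% for ALPL. At 50 bases the shares were 25.4% for ALPP, 29.3% for ALPPL2 and 1.52% for ALPI. The division of reads between ALPP and ALPPL2 is therefore uncertain, and far less sequence is shared by ALPI. Copies elsewhere in the genome were not searched.

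The 250 bases before the RefSeq start of the 3 clustered genes (GRCh38.p14, all on the plus strand of chromosome 2) are shown because these genes moved together below. Capitals mark every GGTCA, the core of an arm of the estrogen response element, on either strand, and the TATA-like TTTAAA.
ALPP, chr2:232378501-232378750: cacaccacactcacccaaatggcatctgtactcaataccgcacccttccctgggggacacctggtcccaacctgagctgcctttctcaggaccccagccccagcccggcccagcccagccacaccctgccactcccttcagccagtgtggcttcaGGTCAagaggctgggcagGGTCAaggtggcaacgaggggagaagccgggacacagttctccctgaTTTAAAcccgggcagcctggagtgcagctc
ALPPL2, chr2:232406594-232406843: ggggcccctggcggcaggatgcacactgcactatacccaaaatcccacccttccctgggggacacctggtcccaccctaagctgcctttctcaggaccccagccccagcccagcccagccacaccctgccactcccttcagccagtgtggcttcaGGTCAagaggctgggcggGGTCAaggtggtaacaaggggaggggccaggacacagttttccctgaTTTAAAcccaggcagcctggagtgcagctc
ALPI, chr2:232455903-232456152: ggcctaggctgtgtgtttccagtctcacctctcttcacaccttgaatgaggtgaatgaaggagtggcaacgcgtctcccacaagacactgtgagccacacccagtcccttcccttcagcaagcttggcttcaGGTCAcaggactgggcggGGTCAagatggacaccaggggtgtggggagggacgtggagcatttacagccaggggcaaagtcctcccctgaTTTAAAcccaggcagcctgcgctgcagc

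Each of these 3 windows held 2 copies of GGTCA on the gene's strand, starting 18 bases apart, and 1 TTTAAA. The ALPP and ALPPL2 windows matched at 88.5% of aligned bases, against 71.5% for ALPP and ALPI and 71.9% for ALPPL2 and ALPI. Of 35116 RefSeq windows of the same length, 7.03% held at least 2 copies of GGTCA (both strands searched) and 11.3% held TTTAAA. The spacing of 18 bases was noticed in these windows and then counted: 12 of the 35116 windows held it, or 0.0342%, these 3 included. Because the 3 windows resemble each other, they are not separate occurrences of the spacing. The full element (GGTCA, 3 bases of any kind, then TGACC) was in none of the 3 windows and in 0.0399% of all. ALPL has 3 such windows in the table, and none of them held GGTCA or TTTAAA. A match is a description of letters and says nothing of binding.

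Library totals ran from 28037392 to 36829479 counts, and levels are given as CPM, counts scaled to library size with TMM factors. ETV4, the targeted gene, stood in parental cells at 19.7 CPM with DMSO and 28.4 CPM with E2, and between 2.42 and 3.41 CPM in the 4 clone libraries. All 10 epithelial markers read here, led by KRT8, averaged at least 1 CPM. Of 12 syncytiotrophoblast markers found in the table none averaged 1 CPM, and their summed level was at most 0.410 CPM. The summed level of 5 leukocyte markers was at most 1.64 CPM. Of 8 endometrial stroma markers 4 averaged at least 1 CPM, led by COL1A1, and their summed level was 53.3 to 78.3 CPM with DMSO and 53.1 to 91.0 CPM with E2.

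ALPPL2 was the most abundant member in every library. The parental line, clone 1 and clone 2 had 108, 91 and 70 counts with DMSO, and 2261, 868 and 1439 counts with E2. In CPM this was 3.63, 2.54 and 2.39 in DMSO and 60.4, 29.8 and 49.2 in E2, so every E2 library lay above every DMSO library. Over the 3 lines ALPPL2 rose with E2 by 4.02 on the log2 scale (SE 0.23, 16.2-fold), with an adjusted p of 0.00214 (edgeR quasi-likelihood, Benjamini-Hochberg over 15611 genes). In bulk RNA, more expressing cells and more RNA per cell cannot be told apart.

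ALPP was nearly silent without estrogen. Its DMSO counts were 6 (parental), 9 (clone 1) and 5 (clone 2), against 589, 220 and 617 with E2. The E2 levels were 15.7, 7.54 and 21.1 CPM, so clone 1 was lowest and clone 2 highest. ALPP rose by 6.11 on the log2 scale (SE 0.51), with an adjusted p of 0.00540 in the same edgeR test.

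ALPI followed the same course from an even lower start. Its DMSO counts were 2 (parental), 6 (clone 1) and 4 (clone 2), and its E2 counts 364, 208 and 617. Its E2 levels were 9.73, 7.13 and 21.1 CPM for the same lines, clone 2 again being highest, and the treatments did not overlap. ALPI rose by 6.63 on the log2 scale (SE 0.56), with an adjusted p of 0.00540 (edgeR). ALPP and ALPI each passed the filter on low counts only through their E2 libraries, so for them a difference was built into being tested.

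ALPL was low and flat. Its DMSO counts were 26 (parental), 26 (clone 1) and 15 (clone 2), and its E2 counts 35, 18 and 16. Its levels lay between 0.512 and 0.935 CPM in all 6 libraries and the treatments overlapped. The E2 effect was -0.03 on the log2 scale (SE 0.32), with an adjusted p of 0.967 (edgeR). At 15 to 35 counts a library, small changes were not detectable.

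**Figure D1:**
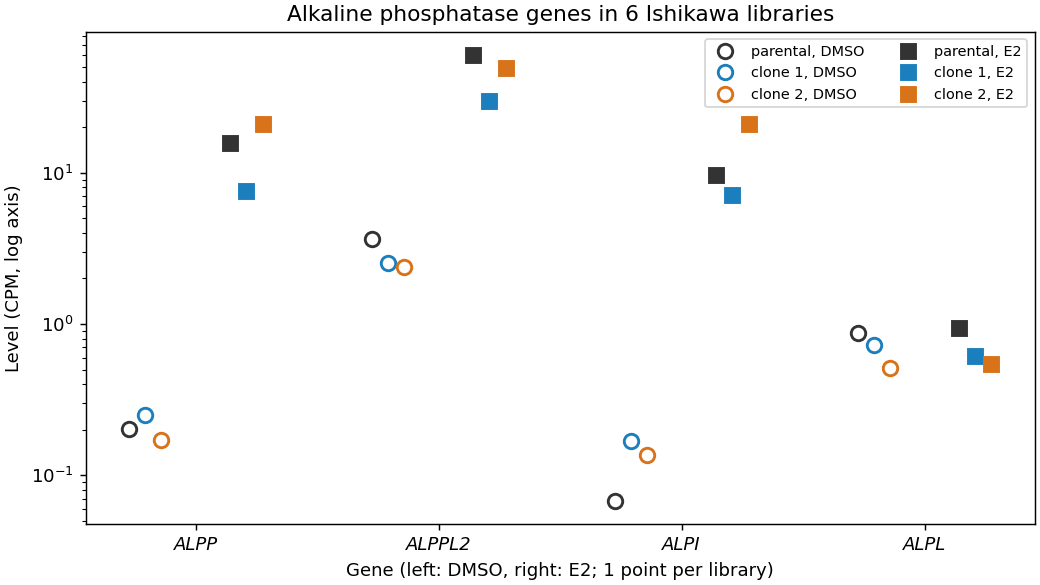
Levels of the 4 genes in CPM (log axis), 1 point per library, with open circles for DMSO, filled squares for E2 and colour for the line. ALPP, ALPPL2 and ALPI are higher in every E2 library than in any DMSO library, while the ALPL points of both treatments lie between 0.512 and 0.935 CPM.

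Thus 3 of the 4 members were called higher in E2. Of all genes tested 0.903% were called in that direction (141 of 15611) and 1.13% in either, and 2 of the 3 members could only enter through their E2 libraries. By size of the fitted E2 change ALPI ranked 4, ALPP 5 and ALPPL2 23 among the 15611 genes. All 3 stayed past the threshold when any of the 6 libraries or any of the 3 lines was left out. With line as a replicate block the same 3 members were called, among 1.72% of genes called higher and 2.46% in either direction. The smallest estimates over the left-out libraries and lines were 6.0 for ALPI and 3.79 for ALPPL2, both without the E2 library of clone 2, and 5.56 for ALPP without clone 2 altogether. With the reads of the 3 clustered genes summed before the fit, which removes their division, the sum rose by 4.54 (SE 0.30), with an adjusted p of 0.00307 (edgeR).

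**Figure D2:**
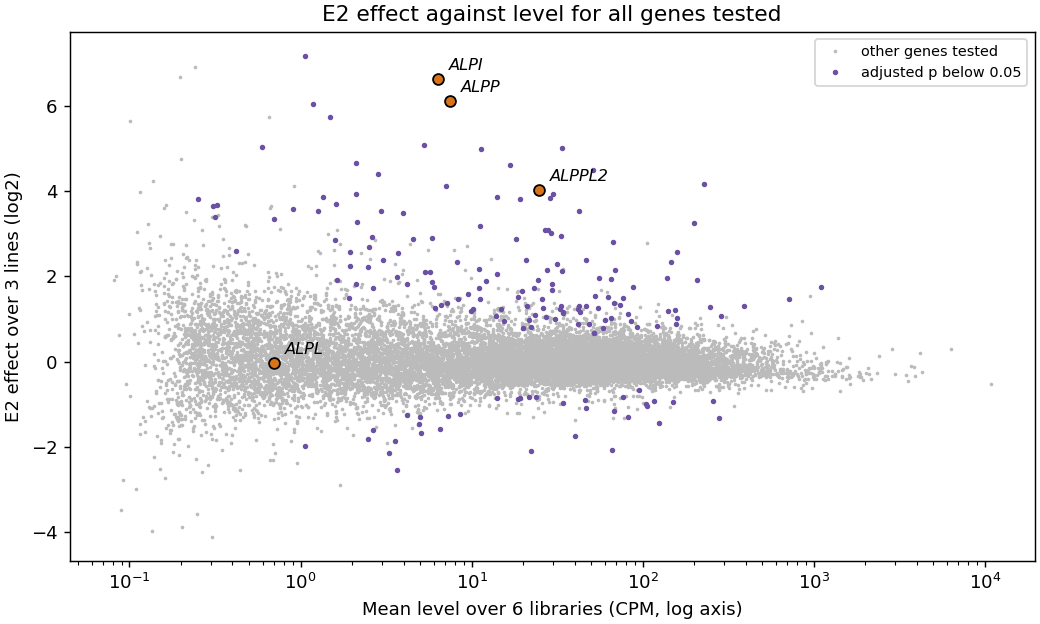
E2 effect over the 3 lines (log2) against the mean level over 6 libraries (CPM, log axis) for the 15611 genes tested, with genes at an adjusted p below 0.05 in purple and the 4 alkaline phosphatase genes in orange. ALPI at 6.63 and ALPP at 6.11 lie at the upper edge, ALPPL2 at 4.02 has the highest level of the 4, and ALPL lies at -0.03.

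Read per line, the E2 ratio differed in size between lines for the same gene. For ALPPL2 the CPM ratio of E2 to DMSO was 16.6 for parental cells (exact 95% counting interval 13.7 to 20.4), against 11.7 (9.43 to 14.7) for clone 1 and 20.6 (16.2 to 26.5) for clone 2. For ALPP it was 78 (35.6 to 214) for parental cells, 30.0 (15.5 to 66.5) for clone 1 and 123 (52.6 to 382) for clone 2. For ALPI, which rests on 2 to 6 counts in DMSO, it was 145 (39.8 to 1199), 42.6 (19.2 to 117) and 154 (60.0 to 568) in that order. Clone 1 had the smallest ratio and clone 2 the largest for all 3 genes. These intervals cover counting error only, since each ratio comes from 1 pair of libraries, and reads without molecular identifiers are not independent molecules.

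The sum of the 3 clustered genes gives the tightest ratios. It was 22.0 (18.3 to 26.7) for parental cells, 15.0 (12.3 to 18.5) for clone 1 and 33.9 (27.1 to 42.9) for clone 2. Among the 12367 genes averaging 2 CPM or more, ALPI had the largest E2 log2 ratio (prior count 2) in each of the 3 lines. ALPP ranked 3 (parental), 5 (clone 1) and 2 (clone 2), and ALPPL2 ranked 24, 13 and 11. A ratio of at least 2-fold higher was reached by 7.64% of these genes for parental cells, 1.75% for clone 1 and 1.61% for clone 2. ALPP and ALPI averaged 2 CPM or more only through their E2 libraries, so a high ratio was built into their being ranked here. ALPL had ratios of 1.07 (0.626 to 1.85), 0.850 (0.439 to 1.61) and 1.07 (0.494 to 2.32), each interval holding 1.

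**Figure D3:**
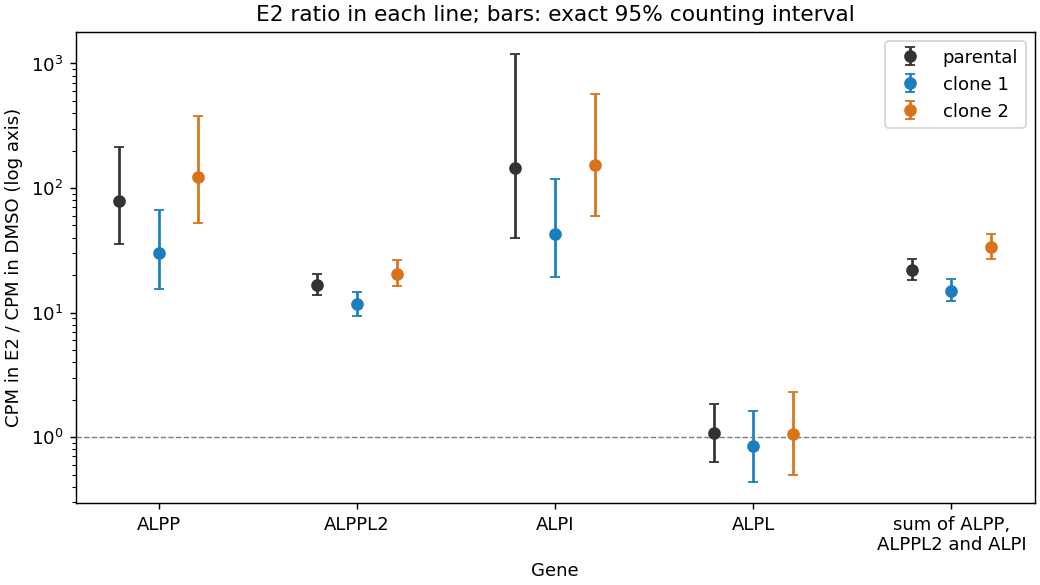
CPM in E2 over CPM in DMSO (log axis) for each gene and for the sum of the 3 clustered genes, 1 point per line, with exact 95% counting intervals as bars and a dashed line at 1. The points for ALPP, ALPPL2, ALPI and their sum lie lowest in clone 1 and highest in clone 2, and the ALPL points lie on the dashed line within their bars.

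The E2 response was also read in the knockout clones alone, to ask whether it was present with ETV4 disrupted. In the clones ALPPL2 averaged 2.47 ± 0.106 CPM (SD, n = 2) in DMSO and 39.5 ± 13.7 CPM (SD, n = 2) in E2. ALPP averaged 0.211 ± 0.0569 CPM and 14.3 ± 9.57 CPM (SD, n = 2), and ALPI 0.152 ± 0.0218 CPM and 14.1 ± 9.86 CPM (SD, n = 2). All 3 rose: ALPPL2 by 3.99 (SE 0.30), ALPP by 6.03 (SE 0.65) and ALPI by 6.48 (SE 0.69) on the log2 scale. The adjusted p was 0.0145 for ALPPL2 and 0.0342 for ALPP and ALPI (edgeR, 14881 genes), where 0.316% of genes were called higher and 0.0134% lower. Here too ALPP and ALPI met the filter on low counts only through their E2 libraries, so a difference was built into their being tested. With the replicate block the same 3 members were called, among 8.54% of genes called higher and 6.42% lower. ALPL did not pass, at -0.10 (SE 0.44, adjusted p 0.974, edgeR). The clone libraries also enter the 3-line test, so these values are not separate evidence.

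These calls within the clones depended on which libraries were used. With the DMSO library of clone 1 left out, the adjusted p (edgeR) was 0.313 for ALPP, 0.181 for ALPPL2 and 0.327 for ALPI, and no gene of the whole table was called. With the DMSO library of clone 2 left out it was 0.261, 0.155 and 0.261. All 3 passed without either E2 library, in fits whose replicate spread came from the DMSO libraries alone, so the size of p has little meaning there. Each of these fits leaves 1 library in a group, which is assumed to vary like the other group. In limma-voom ALPP (adjusted p 0.147) and ALPI (adjusted p 0.157) did not pass. The estimates stayed between 5.11 and 6.58 for ALPP, 3.58 and 4.30 for ALPPL2, and 5.50 and 7.05 for ALPI over the 4 fits that each left out 1 library.

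Whether the size of the E2 response differed between the clones and the parental line was tested by the interaction. It was -0.22 for ALPP (SE 1.16), -0.06 for ALPPL2 (SE 0.47), -0.61 for ALPI (SE 1.44) and -0.19 for ALPL (SE 0.74) on the log2 scale. The adjusted p was at least 0.908 for each (edgeR), and 0% of the 15611 genes passed, with 1190 at an unadjusted p under 0.05. When line entered as a replicate block, 0 of the 4 members passed, where 8.9% of genes were called higher and 6.92% lower. The parental ratio lay between those of the clones for ALPP, ALPPL2 and ALPI. With the reads of the clustered genes summed, the interaction was 0.12 (SE 0.60). A p that misses the threshold does not show that the lines respond alike. The SEs of all 4 members, the smallest being 0.47 for ALPPL2, allow differences of about 2-fold or more either way.

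The knockout effect, with treatment in the model, passed for no member, and 0.327% of genes passed. ALPPL2 was lower in the clones by 0.59 on the log2 scale (-0.59, SE 0.22, adjusted p 0.383, edgeR) and stood below the parental line in both clones under both treatments. In DMSO its ratio to the parental line was 0.70 for clone 1 (exact 95% counting interval 0.523 to 0.933) and 0.658 for clone 2 (0.480 to 0.898). In E2 it was 0.492 (0.455 to 0.533) and 0.814 (0.761 to 0.870). With clone 2 left out ALPPL2 passed, at -0.82 and an adjusted p of 0.00215 (edgeR), in a fit of 1 clone against 1 parental line that holds no spread between clones and called 6.41% of all genes. With clone 1 left out it was at -0.44, with an adjusted p of 0.565 (edgeR).

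ALPL had the same fitted difference, -0.59 (SE 0.33, adjusted p 0.510, edgeR). Its CPM was also lower in both clones under both treatments, on 15 to 35 counts a library. Unlike for ALPPL2, every counting interval of its ratio to the parental line held 1. These were 0.463 to 1.49 (clone 1) and 0.289 to 1.15 (clone 2) in DMSO, and 0.352 to 1.20 and 0.302 to 1.08 in E2. ALPP differed by -0.09 (SE 0.47, adjusted p 0.942, edgeR) and ALPI by 0.62 (SE 0.53, adjusted p 0.608, edgeR). For ALPP the sign turned when clone 1 was left out (0.30). For ALPI it turned when clone 2 was left out (-0.27). Line and genotype cannot be told apart here, because the parental line is a single line.

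Under E2 the clones also differed from each other. In E2 clone 2 stood above clone 1 by a ratio of 2.80 for ALPP (2.39 to 3.28), 2.96 for ALPI (2.52 to 3.48) and 1.65 for ALPPL2 (1.52 to 1.80). In DMSO the ratios were 0.680 for ALPP (0.179 to 2.26), 0.816 for ALPI (0.169 to 3.44) and 0.941 for ALPPL2 (0.679 to 1.30), each interval holding 1. Of the genes averaging 2 CPM or more, 0.833% were at least 2-fold higher in clone 2 than in clone 1 with E2, and 1.24% with DMSO. The estrogen receptor gene ESR1 stood with E2 at 203 CPM (clone 1), 149 CPM (clone 2) and 154 CPM (parental), an order that differs from that of ALPP and ALPI. Other genes called higher with E2 stood in differing orders. PGR was at 71.5, 62.7 and 34.8 CPM and GREB1 at 60.0, 66.2 and 50.1 CPM in clone 1, clone 2 and parental cells. NPPC, at 11.8, 18.1 and 10.2 CPM, and ANPEP, at 9.32, 16.5 and 4.78 CPM, were highest in clone 2, as ALPP and ALPI were. Each value is 1 library, so these differences were not tested.

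Compared per length, ALPPL2 was the leading transcript under both treatments. Lengths were not corrected for sequence shared between members, so the uncertain division of reads between ALPP and ALPPL2 carries into these values. With DMSO it had 1.46 (parental), 1.02 (clone 1) and 0.959 (clone 2) CPM per kb of exon. ALPL came second in DMSO at 0.187 to 0.319 CPM per kb, above ALPP at 0.0575 to 0.0846 and ALPI at 0.0264 to 0.0657. With E2 ALPPL2 had 24.2 (parental), 11.9 (clone 1) and 19.7 (clone 2) CPM per kb. ALPP had 5.30, 2.54 and 7.10 and ALPI 3.81, 2.80 and 8.27, so the order of these 2 changed from line to line, and ALPL was last at 0.199 to 0.341.

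The make-up of the family's counts shifted accordingly. ALPPL2 held 76.1% of the counts of the 4 genes in parental cells with DMSO (exact Clopper-Pearson 95% interval 68.2% to 82.8%), against 68.9% (60.3% to 76.7%) for clone 1 and 74.5% (64.4% to 82.9%) for clone 2. In E2 its share was 69.6% (68.0% to 71.2%), 66.1% (63.4% to 68.6%) and 53.5% (51.6% to 55.4%), so that clone 2 was lowest. The share of ALPL was 16.0% to 19.7% in DMSO and 0.595% to 1.37% in E2. Together, the changes left ALPP and ALPI with larger shares in each E2 library than in the DMSO library of the same line. These shares also carry the uncertain division of reads between ALPP and ALPPL2.

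ALPP and ALPI, set against each other, were balanced differently in the lines. Of their joint counts in E2, ALPI held 38.2% (35.1% to 41.4%) for parental cells, 48.6% (43.8% to 53.4%) for clone 1 and 50% (47.2% to 52.8%) for clone 2. The 2 clones overlapped and the parental line lay below both. The DMSO libraries had 8 to 15 joint counts and could not show such a difference. The intervals cover counting error only, and not the uncertain division of reads between ALPP and ALPPL2.

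**Figure D4:**
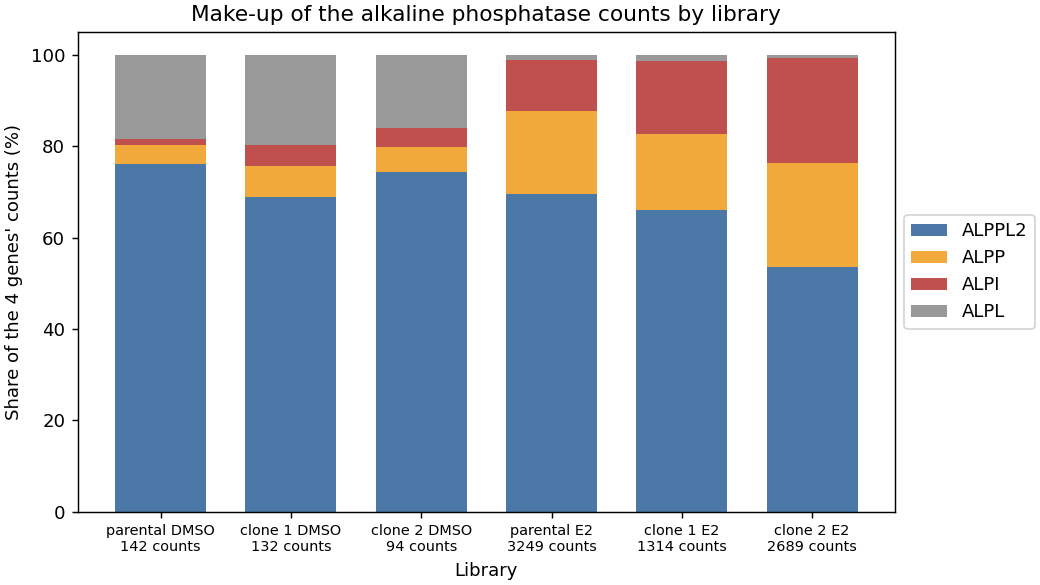
Share of each gene in the summed counts of the 4 genes (percent), 1 bar per library, with the summed counts under each bar. ALPL shrinks from 16.0% to 19.7% in the DMSO bars to 0.595% to 1.37% in the E2 bars, and the ALPPL2 part is smallest in clone 2 in E2, at 53.5%.

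The genes beside the cluster on chromosome 2 were read next, from a list of 11 neighbours chosen with earlier results of these data known. Of the 10 that could be tested, 4 were called higher in E2 and none lower, against 0.903% called higher over all genes. The median E2 change of the 10 was 1.62 on the log2 scale, against -0.02 for all genes. PRSS56, among the 4 called, and ECEL1P2 met the filter on low counts only through their E2 libraries. A difference was thus built into part of both values.

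NPPC, which encodes C-type natriuretic peptide, had 16 (parental), 36 (clone 1) and 22 (clone 2) counts with DMSO, and 380, 345 and 531 with E2. It rose by 4.12 (SE 0.26, adjusted p 0.00264, edgeR). CHRND, a subunit of the muscle acetylcholine receptor, had 5, 14 and 6 counts in DMSO and 125, 126 and 124 in E2 in the same order of lines. It rose by 3.94 (SE 0.33, adjusted p 0.00540, edgeR).

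ECEL1, a membrane protease related to endothelin-converting enzyme, was already present in DMSO, at 98, 87 and 72 counts, and reached 442, 321 and 529 counts in E2. It rose by 2.33 (SE 0.27, adjusted p 0.0167, edgeR), and its adjusted p passed the threshold in 5 of the 6 fits that left out 1 library, the exception being the fit without the DMSO library of clone 1. PRSS56, a serine protease gene, had 1, 4 and 0 counts in DMSO and 94, 57 and 127 in E2. It passed the test (adjusted p 0.0186, edgeR), but not without the parental line, without either parental library or without the E2 library of clone 2, and like ALPP and ALPI it met the filter only through its E2 libraries.

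DIS3L2, an exoribonuclease gene that lies between NPPC and ALPP, was higher in E2 in each line but did not pass (0.91, SE 0.16, adjusted p 0.0602, edgeR). ECEL1P2, a transcribed pseudogene between ALPP and ALPPL2, had 0, 0 and 1 counts in DMSO and 18, 1 and 19 in E2 in the parental line, clone 1 and clone 2, and did not pass (adjusted p 0.165, edgeR). ECEL1P2 met the filter only through its E2 libraries, so a difference was built into its being tested. With line as a replicate block, where 1.72% of all genes were called higher, the adjusted p was 0.0272 for DIS3L2 and 0.0475 for ECEL1P2 (edgeR). CHRNG, next to CHRND, had at most 8 counts in any library and was not tested.

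Farther out no gene passed. Extending the view to 12 tested genes on either side of the cluster, in RefSeq order, 1 of 12 before it (NPPC) and 3 of 12 after it (ECEL1, PRSS56 and CHRND) were called. This wider view was chosen after the nearer neighbours were seen. Among the first genes past CHRND, TIGD1 was at 0.36 (SE 0.19), EIF4E2 at -0.08 (SE 0.19), EFHD1 at 0.74 (SE 0.30) and GIGYF2 at 0.46 (SE 0.20), none of them past the threshold. On the other side the first gene before NPPC, COPS7B, was at 0.05 (SE 0.13). The interaction of E2 and knockout passed for 0 of the 10 neighbours. With the replicate block, which left 1 residual degree of freedom and called 15.8% of all genes, it passed for EIF4E2 (0.72) and GIGYF2 (-0.74). Of 6 neighbours of ALPL, 0 were called by edgeR, with a median of 0.20. An unadjusted p under 0.05 was reached by 3 of them (EIF4G3, ECE1 and RAP1GAP) and by 20.4% of all genes.

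**Figure D5:**
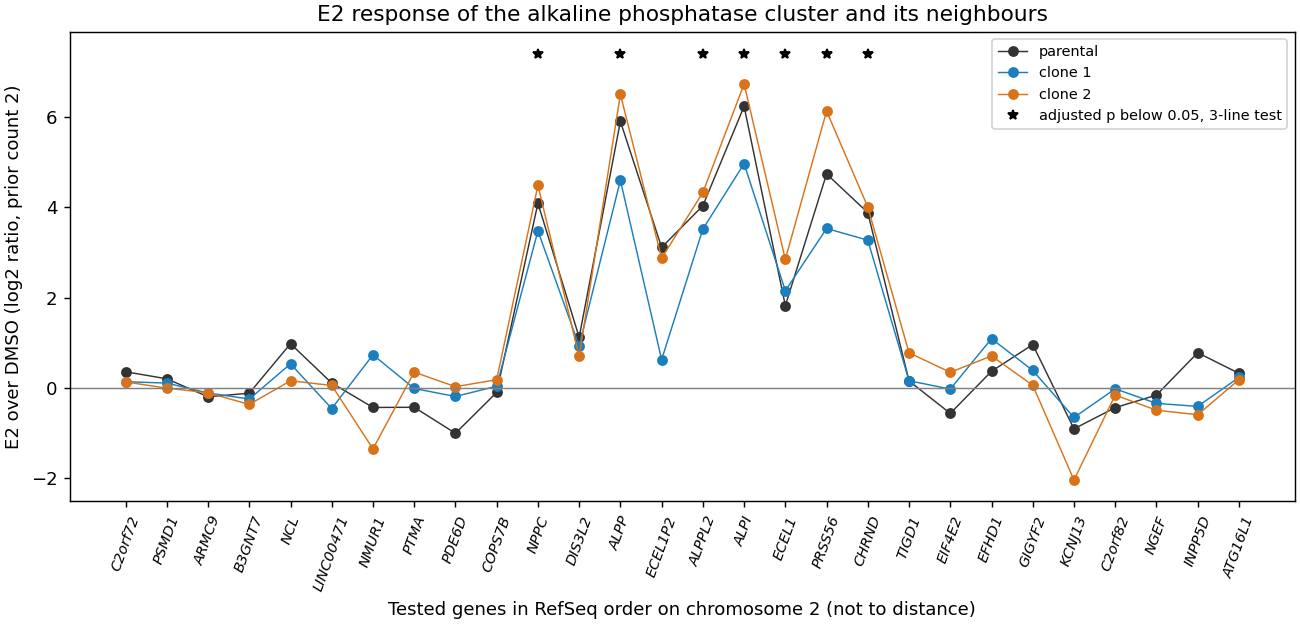
E2 over DMSO (log2 ratio, prior count 2) for the tested genes around the cluster in RefSeq order on chromosome 2, 1 line of points for each cell line, with stars where the adjusted p of the 3-line test is below 0.05. The 7 starred genes all fall between NPPC and CHRND, and no gene before NPPC or after CHRND has a star.

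The genes whose pattern was most like the members' were sought among the 553 other genes averaging 2 CPM or more with a range of at least 2 log2 units, by Pearson's r of log2 CPM over the 6 libraries. For ALPP these were DOK7 (0.998), RBM24 (0.998), ALPI (0.994), HGFAC (0.993) and THBS1 (0.992). For ALPPL2 they were DOK7 (0.992), RBM24 (0.992), ALPP (0.991), SLC6A13 (0.991) and THBS1 (0.990). For ALPI they were NPPC (0.996), HGFAC (0.994), ALPP (0.994), IQSEC3 (0.992) and DOK7 (0.992). NPPC, a chromosomal neighbour, was thus first for ALPI by r, but by root mean square difference ALPP was first and NPPC was not among the 5. All points share the same 6 libraries and any gene with a large E2 change scores high, so these values only describe.

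Other genes of the enzymes' life cycle were read from lists chosen with earlier results of these data known, and few moved with E2. Of 27 tested genes for GPI anchor synthesis and transfer, 0 passed in either direction, with a median of -0.12 against -0.02 for all genes. The most abundant were the transamidase subunits PIGT at -0.29 (SE 0.11) and GPAA1 at -0.15 (SE 0.14). Of 16 other GPI-anchored proteins, 0 passed, and 15 had a negative estimate, with a median of -0.37. With the replicate block 1 of these passed, the folate receptor FOLR1 (-0.86, adjusted p 0.0394). The most abundant of them were the heparan sulfate proteoglycan GPC1 at 0.54 (SE 0.24) and the complement inhibitor CD59 at -0.45 (SE 0.20). All of these tests are edgeR's, and the estimates are log2 changes.

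The zinc transporters that load alkaline phosphatases in the secretory pathway, SLC30A5, SLC30A6 and SLC30A7, were at 0.08 (SE 0.11), -0.23 (SE 0.15) and 0.09 (SE 0.11), and 0 of 3 passed. Of 16 tested genes that handle extracellular phosphate, pyrophosphate and nucleotides, 0 passed with E2, with a median of 0.07. The most abundant were the phosphate transporter SLC34A2 at 0.01 (SE 0.17) and the vitamin B6 kinase PDXK at 0.08 (SE 0.21). In the knockout comparison 1 of these 16 passed, the ecto-nucleotidase ENTPD2, which was higher in the clones by 1.68 (SE 0.21, adjusted p 0.0441, edgeR), where 0.147% of all genes were called higher. It passed in 2 of the 6 fits that left out 1 library, and not without either parental library (adjusted p 0.413 without DMSO and 0.169 without E2, edgeR), the DMSO library of clone 1 (0.0824) or the E2 library of clone 2 (0.161).

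Of 6 tested acid phosphatase genes, 1 fell and 0 rose. ACPP, prostatic acid phosphatase, went from 14.9 (parental), 11 (clone 1) and 10.2 (clone 2) CPM with DMSO to 6.20, 5.07 and 4.03 CPM with E2. It fell by 1.23 on the log2 scale (SE 0.17, adjusted p 0.0267, edgeR), and the 2 treatments did not overlap, where 0.224% of all genes were called lower. It passed in 2 of the 6 fits that left out 1 library, and not without either parental library (adjusted p 0.16 without DMSO and 0.147 without E2, edgeR), the DMSO library of clone 1 (0.115) or the E2 library of clone 2 (0.158). The ubiquitous ACP1 and ACP2 were at -0.17 (SE 0.16) and -0.15 (SE 0.11) and did not pass.

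For scale, of 16 tested genes from a list of 20 commonly estrogen-induced genes, 3 rose and 0 fell: PGR (3.94, SE 0.38), GREB1 (2.96, SE 0.16) and NRIP1 (1.12, SE 0.12). The median of the 16 was 0.60. NRIP1 passed in 2 of the 6 fits that left out 1 library, with adjusted p-values (edgeR) of 0.0563 without the parental E2 library, 0.0629 without the parental DMSO library, 0.0650 without the DMSO library of clone 1 and 0.116 without the E2 library of clone 2. With the replicate block IGFBP4 also passed (2.48, adjusted p 0.0422, edgeR). ALPPL2 had a fitted change close to that of PGR, and the changes of ALPP and ALPI were larger than any on that list.

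Markers of the tissues that normally express these enzymes were set beside them. Of 18 enterocyte markers 6 had 0 counts in every library, 8 were tested and 1 rose, the aminopeptidase ANPEP (5.07, SE 0.38, adjusted p 0.00405, edgeR). Of the 8 tested, 5 had a positive estimate, with a median of 0.47 against -0.02 for all genes. VIL1, a defining brush border gene, was at 0.15 (SE 0.55). CDHR5, also on the list, stood with DMSO at 0.101 (parental), 0.586 (clone 1) and 1.64 (clone 2) CPM. With E2 it stood at 1.10, 1.34 and 2.53 CPM, but it did not pass. The summed level of the list, led by SLC15A1, was 23.8 to 27.0 CPM in DMSO and 27.2 to 42.8 CPM in E2. Within that sum ANPEP went from 0.168 (parental), 0.251 (clone 1) and 0.478 (clone 2) CPM to 4.78, 9.32 and 16.5 CPM with E2. SLC15A1 was lower with E2 in each line, at 19.0, 19.4 and 21.8 CPM with DMSO against 15.2, 16.6 and 20.6 CPM. SLC5A1 was also lower in each line, at 1.55, 1.06 and 0.239 CPM against 0.748, 0.583 and 0.137 CPM. None of the 12 syncytiotrophoblast markers in the table reached the filter, and 5 had 0 counts throughout. Of 9 germ cell markers 3 were tested and 0 passed. A positive estimate was seen for 2 of the 3 (median 0.14, highest 0.87). KIT, at -0.57 (SE 0.16), had an adjusted p of 0.152 (edgeR). Of 6 osteoblast markers 2 were tested and 0 passed.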

How the data were processed

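Poly(A) RNA from 6 Ishikawa cultures had been sequenced with a stranded kit, per the labels' protocols. The authors deposited a table of raw counts per gene and a table of normalized signal. Within a library the ratio of raw count to signal was constant, and it matched the DESeq2 factor recomputed here (0.926 to 1.19). The submitters' processing notes name hg19, HISAT2, SAMtools, Subread and DESeq2, without versions or roles. Annotation and use of strand are not given in the sources used here. Columns written DMOS and ER were read as DMSO and E2.

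Counts were tested with edgeR 4.0.16 in R 4.3.3 (TMM, filterByExpr by genotype-treatment group, 15611 of 26364 genes kept), with Benjamini-Hochberg adjustment over all genes and a threshold of 0.05. The E2 and knockout effects came from a model of genotype and treatment over 6 libraries, the interaction from a model with both and their product, and the clones were also fitted alone. SEs were derived from each log2 change and its F statistic. P-values rest on the spread between libraries that each model leaves, and the pairing by line entered only with the replicate block. In the knockout test both libraries of a line counted as separate replicates. In the interaction model each parental group held 1 library, so the spread came from the clones alone. The pipeline was tested on simulated counts for the E2 effect over the 3 lines (15335 genes). There 50 of 50 genes changed by 4 log2 units were called, and 40 of 50 changed by 1, with 14 false calls in the whole simulation. The simulated libraries were independent, with a common dispersion and no difference between lines. The changed genes averaged at least 2 CPM in the data. These counts therefore do not carry over to the real lines or to genes with very low counts.

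Counting intervals are exact (95%). Coding and exon lengths came from GENCODE 29, and promoter windows and gene order from RefSeq, both GRCh38, matched by symbol (4 of 4 members, ALPPL2 as ALPG). Alternatives were other scaling (DESeq2 1.42.0 factors), no or a stricter filter, DESeq2's Wald test, limma-voom (limma 3.58.1), a replicate block, left-out libraries and lines, summed reads of the cluster, other prior counts and lengths.

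The clone number pairs a DMSO and an E2 library of the same clone. The difference between the clones correlated between treatments at 0.739 across genes. Named genes were the members, list genes past the threshold, the 2 most abundant of each list, and the 5 most alike by Pearson's r. Some others were named after their values were seen. Members and lists were chosen with earlier results of these data known.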

Additional observations from a re-analysis of the deposited data

How the results depend on the processing

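The E2 calls of ALPP, ALPPL2 and ALPI over the 3 lines kept their direction and stayed past the threshold under every alternative that tested them. ALPP and ALPI could not be tested with at least 10 counts in every library. The count of genes called over the 3 lines (176) was 1115 in DESeq2 and 384 with the replicate block. It ran from 40 to 1704 without 1 library (40 without the E2 library of clone 2, 1704 without the DMSO library of clone 2) and from 49 (without the parental line) over 745 (without clone 1) to 3353 (without clone 2) when a line was left out. The fitted change of ALPL turned sign there, from -0.13 to 0.13 over the left-out libraries and up to 0.07 without a line. In the clones alone the count (49) was 310 in DESeq2, 2227 with the replicate block, and 0 to 352 without 1 library. The replicate block left 1 residual degree of freedom there and in the interaction, with each gene's spread taken from the trend over all genes. It changed no member's call in any comparison. In limma-voom the clones gave 5.80 for ALPP and 6.19 for ALPI, neither past the threshold. Without 1 library the estimates ran from 5.11 to 6.58 for ALPP, 3.58 to 4.30 for ALPPL2, 5.50 to 7.05 for ALPI and -0.32 to 0.17 for ALPL.

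The knockout count (51) was 454 in DESeq2, 1 to 99 without 1 library, and 631 or 996 without a line. Without 1 library the knockout effect ran from -0.70 to 0.33 for ALPP, -0.09 to 1.14 for ALPI and -0.78 to -0.43 for ALPPL2. Without a line it ran from -0.84 to 0.30 for ALPP, -0.27 to 1.09 for ALPI and -0.82 to -0.44 for ALPPL2. Summing the reads of the cluster gave -0.39 for the knockout effect (turning ALPI) and 0.12 for the interaction (turning ALPP, ALPPL2 and ALPI). The interaction count (0) was 29 in DESeq2, 2470 with the replicate block, and 0 to 38 without 1 library. The interaction ran from -1.14 to 0.34 for ALPP, -0.47 to 0.26 for ALPPL2, -1.59 to -0.03 for ALPI and -0.42 to 0.062 for ALPL. DESeq2 gave the members no adjusted p for it. Fits without either parental library or without any line could not be made for the interaction, nor the knockout effect without the parental line, nor the clones alone without a clone.

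Per exon length, a choice made after seeing the data, the ALPP share in E2 was 14.5% in clone 1, 20.1% in clone 2 and 15.7% in the parental line, and the ALPPL2 share was 55.9% in clone 2 and 71.9% in the parental line. Per coding length no share left its counting interval. Prior counts and scalings moved no line's E2 ratio by more than its counting interval. By root mean square difference in place of Pearson's r, 2 of the 5 most alike genes were shared for each of the 3 members. Of the neighbours, in counts chosen after seeing the data, 2 were called with at least 10 counts in every library and 7 without clone 2, where 12.7% of all genes were called higher. Leaving out 1 library for the named genes outside the family was also added after seeing the data. There ETV4, the targeted gene, did not pass the knockout test without the parental DMSO library (adjusted p 0.0986), the parental E2 library (0.115) or the E2 library of clone 2 (0.0561, all edgeR). The cause of these movements was not tested. Depth limits ALPL, and the DMSO levels of ALPP and ALPI.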
